A study of Mus musculus with 38 samples.

Results

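Gene expression in sorted osteoclast precursors was compared between mice that had received granulocyte colony-stimulating factor (G-CSF) and mice that had not, within the first of 2 sequencing runs. The labels put 8 precursor libraries of the 38 libraries of the series in run 1, and all 8 were used. The 6 libraries with G-CSF were 3 from mice given G-CSF alone (replicates 1, 2 and 3) and 3 from mice given G-CSF and zoledronic acid (ZA), called combined here (replicates 1, 2 and 3). The 2 libraries without G-CSF were 1 from an untreated mouse group (replicate 2) and 1 from the ZA group (replicate 3). All mice were female C57BL/6, 6 to 7 weeks old. G-CSF was the recombinant human protein, injected into the peritoneum at 50 µg per kg on each of 3 days, starting 2 days after ZA where both were given. ZA, a bisphosphonate that binds bone and inhibits farnesyl diphosphate synthase, was injected into the peritoneum at 100 µg per kg. The sorted cells were depleted of cells bearing TER119, CD45R, CD11b, CD3 or Ly-6G/Ly-6C, and were sorted for CD115, the receptor for macrophage colony-stimulating factor.

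G-CSF binds the receptor encoded by Csf3r on granulocyte precursors and other myeloid cells. The receptor acts through JAK kinases and STAT transcription factors, chiefly STAT3, whose target Socs3 encodes an inhibitor that ends the signal. G-CSF is known for driving neutrophil production and for releasing progenitor cells from marrow, partly by loosening their retention through the chemokine receptor Cxcr4. CD115-positive marrow precursors give rise to monocytes, macrophages, dendritic cells and osteoclasts, the last under the RANK receptor encoded by Tnfrsf11a. The comparison asks which transcripts of these precursors differ under G-CSF.

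The 8 libraries held 21.05 to 33.2 M estimated counts (median 27.4 M). A count of 0 in a library allowed up to 3 counts, or 0.0887 to 0.142 CPM (counts relative to library size), counting error alone. Levels are CPM scaled between libraries by the trimmed mean of M values (TMM) unless TPM, which also corrects for gene length, is named. Log2 fold changes are with over without G-CSF, ± standard error. ZA was present in 3 of the 6 libraries with G-CSF and in 1 of the 2 without. The labels number the replicates but do not say that each is a separate animal. The p-values therefore cover only the spread among these libraries, which may be technical. With 6 libraries against 2 there are 28 arrangements, so an exact two-sided permutation test of a single value cannot go below p = 0.0714. In bulk RNA, fewer cells of a type and less RNA per cell cannot be told apart.

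The sort was checked on the markers it used and excluded, in TPM, against the 3 whole marrow libraries of the same run. Csf1r, which encodes CD115, had a median of 63.1 TPM in the 8 precursor libraries and 10.1 TPM in whole marrow. The progenitor antigen gene Cd34 had medians of 45.5 and 4.68 TPM in the same order. The monocyte fate factor Irf8 had a median of 493 TPM in precursors and 36.8 TPM in marrow. Among genes of the excluded antigens, the neutrophil gene Ly6g had a median of 2.20 TPM in precursors and 209.9 TPM in marrow, and Cd3e had a median of 0 TPM in precursors. Itgam, which encodes CD11b, was not low: its median was 21.7 TPM in precursors (11.5 to 32.5) and 34.1 TPM in marrow. Ly6c2, which encodes the antigen Ly-6C that the lineage cocktail targets, went against the gate: its median was 2265 TPM in precursors and 372 TPM in marrow. Reads of Ly6c2 may be shared with very similar genes beside it, which makes its level uncertain.

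Combined replicate 3 stood apart from the other 7 libraries on the first principal component, which held 20.7% of the variance. Its Hba-a1 level of 822 CPM was at least 4 times that of any other library. Small RNA genes took 18.9% to 43.7% of TPM, highest in combined replicate 1, and mitochondrial genes 3.70% to 6.75%. The Pearson correlation of log2(TPM + 1) over 8922 genes with a mean of at least 5 TPM was 0.884 to 0.931 between the 8 libraries. The libraries with G-CSF correlated at 0.884 to 0.931 among themselves and at 0.897 to 0.922 with the untreated and ZA libraries. The untreated and ZA libraries correlated with each other at 0.912. The correlations across the 2 sides thus lay within the range found among the libraries with G-CSF.

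Run 2 held 9 precursor libraries of other replicate numbers, 4 with G-CSF and 5 without. Several libraries of run 1 had one close counterpart in run 2 under another label. Combined replicate 1 correlated at 0.973 with run 2 combined replicate 4, and its deviations from the mean of the 8 run 1 libraries correlated at 0.67 with those of that library. The run 2 library labelled as the same sample, combined replicate 1, gave 0.48 for the deviations. Combined replicate 3 was most like combined replicate 5 (0.61, against 0.28 for its own label), G-CSF replicate 1 most like G-CSF replicate 4 (0.47, against 0.22) and G-CSF replicate 3 most like G-CSF replicate 5 (0.42, against 0.31). ZA replicate 3 was most like ZA replicate 8 (0.49). G-CSF replicate 2 was most like the run 2 library labelled whole marrow G-CSF replicate 2 (0.58, against −0.0043 for its own label). Untreated replicate 2 was most like the library labelled whole marrow untreated replicate 2 (0.48, against 0.14 for its own label). Beyond the best 2 matches of each library, the highest correlation of deviations was 0.14. Among run 2 libraries labelled precursors without G-CSF, untreated replicate 7, ZA replicate 5 and ZA replicate 7 had mean correlations of 0.784, 0.814 and 0.784 with the run 1 precursors, against 0.782 to 0.802 for whole marrow of run 1. The run 2 libraries labelled precursor G-CSF replicate 2 and untreated replicate 2 had 0.767 and 0.806. Those of run 2 labelled whole marrow G-CSF replicate 2 and untreated replicate 2 had 0.923 and 0.920. The run 2 library labelled whole marrow ZA replicate 2 had 0.801. Whether labels or samples differ was not tested. Run 2 values are given beside those of run 1 and are no independent support for them.

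**Figure D1:**
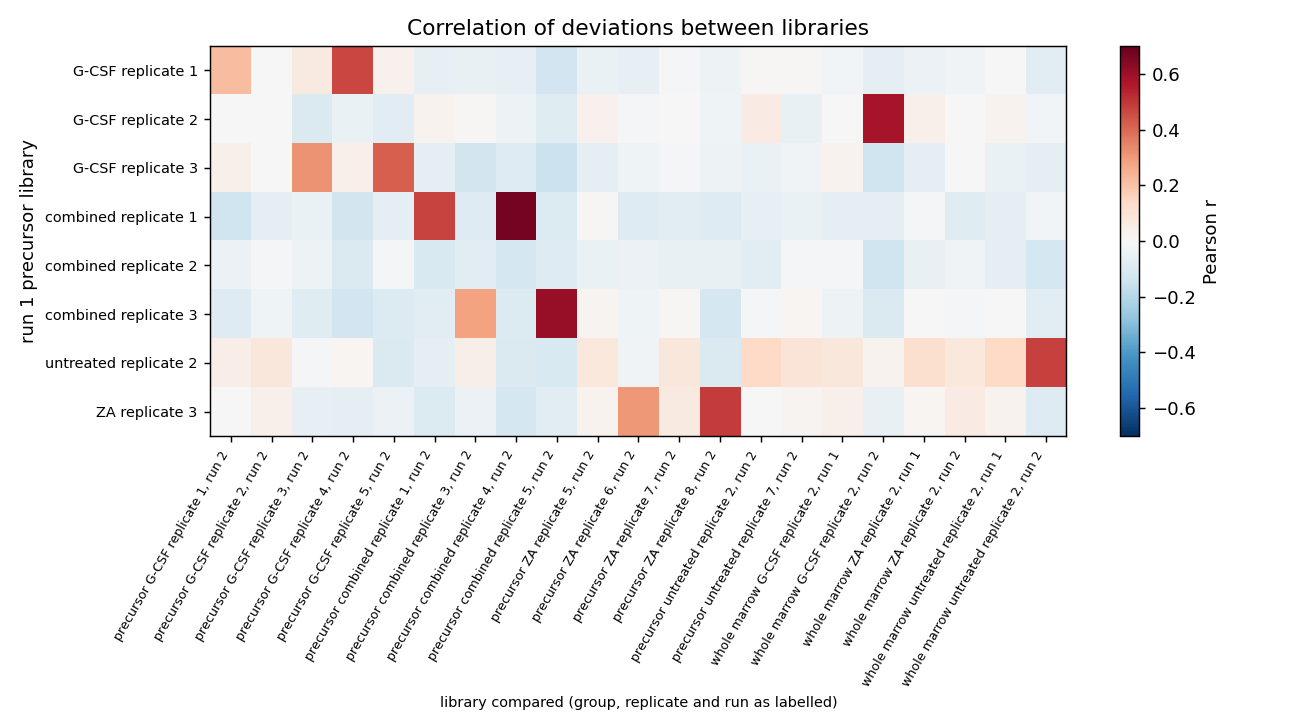
Pearson correlation of deviations from the mean of the 8 run 1 precursor libraries, on log2(TPM + 1), between each of those libraries (down the page) and each library of run 2 and of whole marrow (across, as labelled). Each row except combined replicate 2 has 1 strongest cell, which reaches 0.67 for combined replicate 1, and the whole marrow columns of G-CSF replicate 2 and untreated replicate 2 in run 2 hold 2 of these.

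No gene passed the test. The edgeR quasi-likelihood test with Benjamini-Hochberg adjustment called 0 genes higher and 0 genes lower with G-CSF among 17187 tested, and its smallest adjusted p was 0.301. At an unadjusted p under 0.05 there were 589 genes, 3.43% of those tested. DESeq2 called 13 genes higher (0.0756%) and 10 lower (0.0582%). Limma on log2(TPM + 1) called 0 higher and 5 lower, on a scale where the median of all genes was −0.12 against 0.01 in edgeR. Without combined replicate 3 edgeR also called 0 genes in either direction, with 692 at an unadjusted p under 0.05.

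Most differences between these libraries were bounded closely. The intervals rest on the spread among these libraries, which may be technical, so they do not bound differences between mice. The median standard error of the log2 fold change was 0.21 over all genes tested and 0.13 over the 10417 genes with a mean of at least 5 CPM. For 94.1% of those 10417 genes the 95% confidence interval lay within 2-fold either way, as it did for 62.3% of all genes tested. Only 46 of the 10417 genes, 0.442%, had a log2 fold change of 1 or more, 29 of them higher and 17 lower with G-CSF. In 4 of the 29 all 6 libraries with G-CSF lay above both others, and in 6 of the 17 all 6 lay below. Over all genes tested, all 6 lay above both others in 3.03% and below both in 3.11%, 6.14% in either direction.

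**Figure D2:**
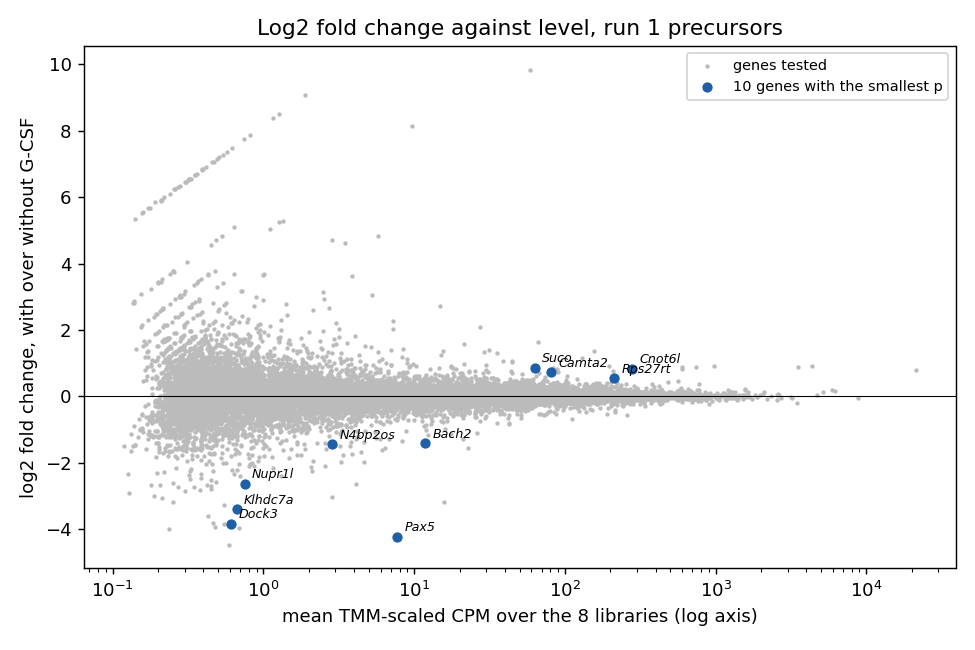
Log2 fold change, with over without G-CSF, against the mean TMM-scaled CPM of the 8 run 1 libraries (log axis), 1 point per gene tested. The points narrow around 0 as the level rises, and the 10 genes with the smallest p, none of which passed, are marked in blue.

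Since no gene passed, the 10 genes with the smallest unadjusted p are described. Their libraries do not overlap between the sides, which held for 6.14% of all genes tested. Cnot6l encodes a catalytic subunit of the CCR4-NOT deadenylase, which shortens the poly(A) tails of mRNAs (ENSMUSG00000034724, chromosome 5, 96070333 to 96164171, minus strand, mm10). It had 279.9, 315 and 261 CPM with G-CSF alone and 349, 323 and 358 CPM with the combined treatment, against 171 CPM untreated and 182 CPM with ZA. The 6 libraries with G-CSF were all higher, and the 3 combined libraries were the highest. The log2 fold change was 0.83 ± 0.12 (adjusted p = 0.301).

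Camta2, a calmodulin-binding transcription activator (ENSMUSG00000040712, chromosome 11, 70669463 to 70688105), had 98.2, 80.9 and 88.0 CPM with G-CSF alone and 96.8, 93.4 and 83.0 CPM with the combined treatment, against 59.6 CPM untreated and 48.7 CPM with ZA. Its log2 fold change was 0.73 ± 0.11 (adjusted p = 0.301). Suco encodes a SUN domain protein needed for bone formation by mouse osteoblasts (ENSMUSG00000040297, chromosome 1, 161816114 to 161876682). It had 73.2, 69.3 and 63.3 CPM with G-CSF alone and 61.2, 86.8 and 73.9 CPM with the combined treatment, against 40.4 CPM untreated and 38.2 CPM with ZA. For both genes every library with G-CSF was above both others. The log2 fold change of Suco was 0.86 ± 0.13 (adjusted p = 0.301). Rps27rt, a near-identical copy of a ribosomal protein gene whose reads may be shared with it, had 199 to 267 CPM with G-CSF and 157 and 161 CPM without (0.54 ± 0.10, adjusted p = 0.678).

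Among the 6 genes with lower values under G-CSF, Pax5 had the largest difference. Pax5 encodes the transcription factor that commits cells to the B lineage (ENSMUSG00000014030, chromosome 4, 44524757 to 44710487). It had 3.12, 0.213 and 1.10 CPM with G-CSF alone and 0.258, 1.39 and 2.47 CPM with the combined treatment, against 17.01 CPM untreated and 36.02 CPM with ZA. The ZA library was above the untreated one, and the libraries with G-CSF differed widely among themselves. The log2 fold change was −4.23 ± 0.74 (adjusted p = 0.580). In TPM, Pax5 ranged from 0.0867 to 20.1 in the 8 libraries, against 60.9 to 67.4 in the 3 whole marrow libraries of run 1.

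Bach2, a transcriptional repressor active in B and T lymphocytes (ENSMUSG00000040270, chromosome 4, 32238804 to 32586108), had 7.75, 10.2 and 9.20 CPM with G-CSF alone and 7.88, 5.41 and 9.72 CPM with the combined treatment, against 28.4 CPM untreated and 16.2 CPM with ZA (−1.42 ± 0.25, adjusted p = 0.475). Here the untreated library was the higher one of the 2 without G-CSF. Of the 15 B lineage genes, Pax5 and Igll1 lay below in all 6 libraries and the others overlapped between the sides. Pax5 had been picked by its small p, and 3.11% of all genes tested lay below in all 6. Igll1, a surrogate light chain gene of early B cells, had 0.0363 to 0.651 CPM with G-CSF and 0.762 and 0.839 CPM without (−1.45 ± 0.79, adjusted p = 1.00). Cd79a, a B cell receptor component gene, had 0.774 to 3.41 CPM with G-CSF and 3.72 and 1.79 CPM without.

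The other genes of this set were low throughout. Klhdc7a, a kelch domain gene, had 0.0737 to 0.363 CPM with G-CSF and 1.65 and 2.52 CPM without (−3.41 ± 0.52, adjusted p = 0.301). Dock3, a guanine nucleotide exchange factor known from neurons, had 0.0368 to 0.284 CPM with G-CSF and 1.69 and 2.36 CPM without (−3.84 ± 0.61, adjusted p = 0.301). Nupr1l, a relative of a stress-response gene, had 0.145 to 0.553 CPM with G-CSF and 2.24 and 1.83 CPM without (−2.63 ± 0.46, adjusted p = 0.475). Some of these values are below the 3 counts that a count of 0 allows. N4bp2os, an antisense transcript whose reads cannot be told apart from those of its partner without strand, had 1.66 to 2.46 CPM with G-CSF and 4.19 and 6.67 CPM without (−1.44 ± 0.26, adjusted p = 0.520).

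**Figure D3:**
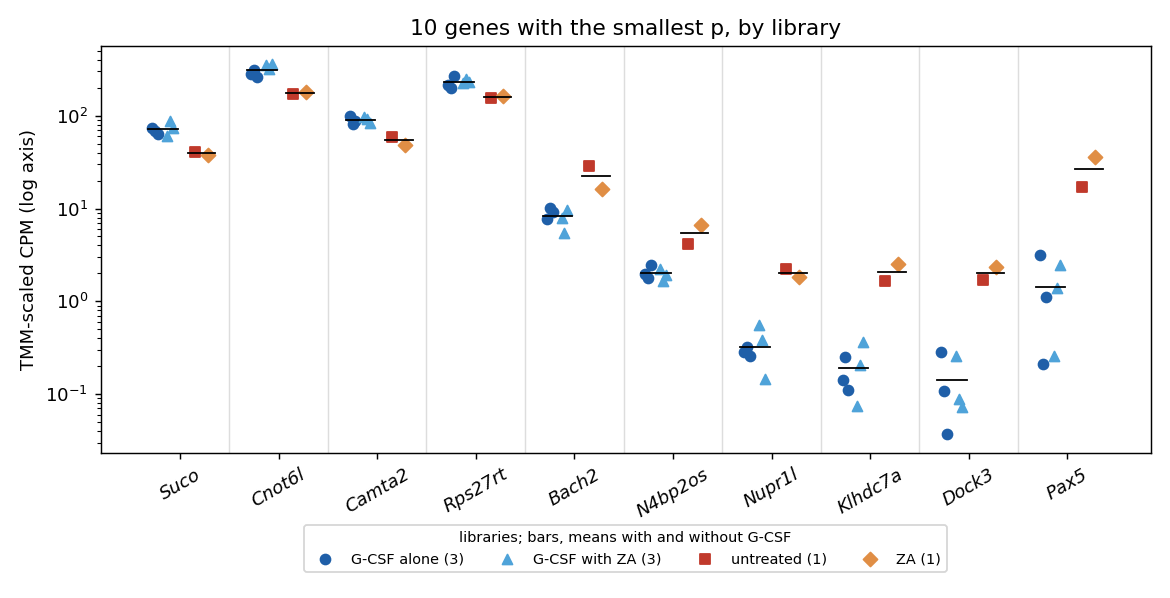
TMM-scaled CPM (log axis) of the 10 genes with the smallest unadjusted p in each run 1 library, with G-CSF at the left of each gene and without at the right, and bars at the means. The sides do not overlap for any of the 10, by which they were in effect chosen, and Pax5 has the widest spread among the 6 libraries with G-CSF.

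DESeq2 called these 10 genes and 13 others, which were named after their values were seen. The higher ones included Dvl1, a Wnt signal transducer, with 52.9 to 60.6 CPM with G-CSF against 43.2 and 39.9 CPM without (DESeq2 log2 fold change 0.43 ± 0.09, adjusted p = 0.00130). The transcription factor gene Runx3 had 72.3 to 106 CPM with G-CSF against 65.1 and 38.1 CPM without (0.85 ± 0.20, DESeq2 adjusted p = 0.0240). Homer1, a scaffold protein gene, had 15.6 to 18.8 CPM with G-CSF against 10.9 and 12.2 CPM without (0.55 ± 0.14, DESeq2 adjusted p = 0.0498). Among those lower, the nuclear receptor gene Nr4a2 had 1.92 to 9.78 CPM with G-CSF against 16.7 CPM untreated and 77.8 CPM with ZA (−3.20 ± 0.79, DESeq2 adjusted p = 0.0400). Nudt1, which clears oxidised nucleotides, had 16.1 to 21.9 CPM with G-CSF against 30.0 and 26.2 CPM without (−0.55 ± 0.14, DESeq2 adjusted p = 0.0495). In edgeR the adjusted p of Dvl1 was 0.711 and that of the other 4 was 1.00. Nr4a2 in the ZA library was at least 4 times its level in any other run 1 library. In run 2 its edgeR log2 fold change was 1.05 ± 0.57, opposite in direction to run 1. Dvl1, Runx3, Homer1 and Nudt1 kept their direction there. Of the calls not described, Swt1, Snapc4, Gm14434 and Gm26695 also had the opposite direction in run 2. Trmt44, Cc2d1b, Lats2 and Gm43191 kept theirs.

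No gene of the G-CSF receptor pathway passed the test in edgeR. Csf3r had 171, 154 and 128 CPM with G-CSF alone and 143, 141 and 139.5 CPM with the combined treatment, against 141 CPM untreated and 131 CPM with ZA. The sides overlapped, and the log2 fold change was 0.10 ± 0.10, with a 95% interval of −0.13 to 0.33 (adjusted p = 1.00). Of the 22 genes of the pathway list, all 22 were tested, 0 were called, and their median log2 fold change was −0.01 against 0.01 over all genes. Stat5a, which like Stat5b and Stat3 encodes a transcription factor activated by the receptor, was the 1 member with all 6 libraries above both others, at 74.9 to 99.2 CPM with G-CSF against 72.9 and 66.1 CPM without (0.32 ± 0.12, adjusted p = 1.00). For this list and those that follow, the share to set beside such members is that of all genes tested. Of these, 3.03% lay above both others in all 6 libraries and 3.11% below. Stat3 had 159 to 196 CPM with G-CSF and 209.9 and 187 CPM without (−0.15 ± 0.09). The kinase gene Jak2 had 91.8 to 105 CPM with G-CSF and 103 and 96.5 CPM without (0.00 ± 0.08). The inhibitor gene Socs2, at 0.405 to 1.38 CPM with G-CSF and 0.550 and 0.648 CPM without, had a wide interval of −0.40 to 1.83 (0.72 ± 0.50). The STAT target Pim1 and the factor Cebpb had log2 fold changes of −0.07 ± 0.13 and −0.29 ± 0.23.

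Socs3, the STAT3 target that restrains the receptor, was high in a single library. It had 0.520, 19.4 and 0.736 CPM with G-CSF alone and 1.03, 0.858 and 2.32 CPM with the combined treatment, against 2.84 CPM untreated and 1.45 CPM with ZA. G-CSF replicate 2 was far above the other 5, and 4 of the 6 were below both libraries without G-CSF. The log2 fold change of 0.95 ± 1.51 became −0.97 ± 0.57 without that library (adjusted p = 1.00 for both). The promoter of Socs3 is shown because Socs3 is the textbook STAT3 target whose values turn on 1 library. It spans 250 bases before to 50 after the start (chr11:117969317-117969616, minus strand, RefSeq, GRCm38.p6), and capitals mark the 1 match to TTCNNNGAA, the pattern of a STAT site.
Socs3: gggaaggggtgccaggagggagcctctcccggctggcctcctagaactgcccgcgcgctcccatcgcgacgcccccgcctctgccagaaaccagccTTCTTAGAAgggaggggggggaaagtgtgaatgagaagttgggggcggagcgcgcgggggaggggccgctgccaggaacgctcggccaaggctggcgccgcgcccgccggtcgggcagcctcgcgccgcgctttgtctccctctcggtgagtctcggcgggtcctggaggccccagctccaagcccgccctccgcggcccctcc
The match begins 154 bases before the RefSeq start, and the pattern reads the same on both strands. GENCODE vM21 places Socs3 at 117966079 to 117970047, with another start. The whole stretch shown lies inside that gene model. The pattern occurred in 8.30% of 32851 promoters of the same length, and in 1 of the 12 promoters found for 9 of the 10 genes above.

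**Figure D4:**
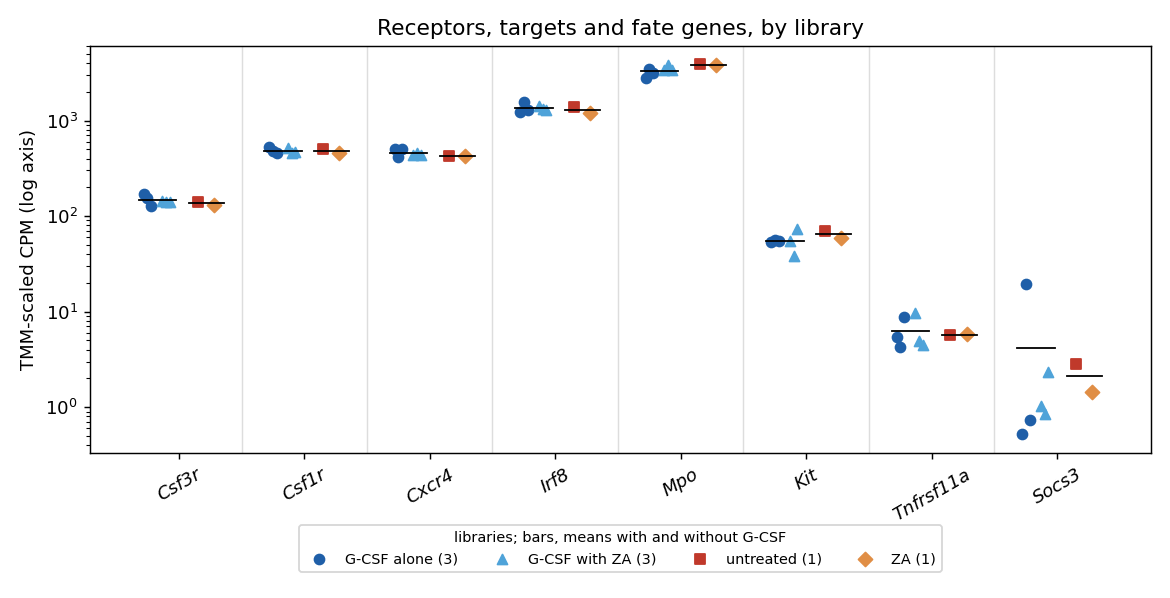
TMM-scaled CPM (log axis) of 8 receptor, target and fate genes in each run 1 library, with G-CSF at the left of each gene and without at the right, and bars at the means. The sides overlap for each of the 8 genes, and Socs3 at 19.4 CPM in G-CSF replicate 2 is the 1 point far from its group.

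No granule gene of the neutrophil lineage passed the test in edgeR. Mpo encodes the peroxidase packed first into neutrophil granules. It had 2775, 3438 and 3166 CPM with G-CSF alone and 3405, 3811 and 3358 CPM with the combined treatment, against 3862 CPM untreated and 3800 CPM with ZA. Of the 6 libraries with G-CSF, 5 lay below both others and combined replicate 2 lay between them, with a log2 fold change of −0.20 ± 0.10 and a 95% interval of −0.42 to 0.01 (adjusted p = 1.00). Of the 10 primary granule genes 0 were called, and their median was −0.12. The protease genes Elane, Prtn3 and Ctsg had log2 fold changes of −0.05 ± 0.12, −0.13 ± 0.10 and −0.03 ± 0.09. Among 15 genes of secondary and tertiary granules 0 were called (median 0.04), and the collagenase gene Mmp8 was the 1 member with all 6 libraries above both others, at 39.4 to 71.6 CPM with G-CSF against 39.3 and 32.4 CPM without (0.46 ± 0.22).

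Of the 15 mature neutrophil genes 10 were tested and 0 called (median −0.29). The calprotectin gene S100a8 had 79.9 to 179.8 CPM with G-CSF and 155 and 119.6 CPM without (−0.26 ± 0.27). The granulocyte fate list of 8 had 0 called and a median of −0.10: Cebpa had 176 to 202 CPM with G-CSF and 218 and 197 CPM without (−0.15 ± 0.07), and Gfi1, a repressor of monocyte genes, averaged 12.7 ± 2.39 CPM with G-CSF (SD, n = 6) and 12.9 ± 0.440 CPM without (SD, n = 2; −0.01 ± 0.19). Cebpe, a factor of late granule formation, had 7.11 to 8.89 CPM with G-CSF and 12.7 and 8.61 CPM without (−0.36 ± 0.18).

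Monocyte genes other than Zeb2 overlapped between the sides, with narrow intervals for abundant ones such as Irf8 and Csf1r. Irf8, the factor of monocyte fate, had 1221 to 1551 CPM with G-CSF and 1379 and 1202 CPM without (0.06 ± 0.09, 95% interval −0.15 to 0.27). Csf1r, the gene of the sorted receptor, had 453 to 531 CPM with G-CSF and 501 and 462 CPM without (0.01 ± 0.07, 95% interval −0.16 to 0.17). None of 12 monocyte fate factors (median 0.06) or 20 monocyte and macrophage genes (median 0.04) was called by edgeR. Zeb2 was the 1 factor with all 6 libraries above both others, at 506 to 797 CPM with G-CSF against 380.2 and 504 CPM without (0.45 ± 0.20). Klf4 had 314 to 407 CPM with G-CSF and 308 and 324 CPM without (0.15 ± 0.09), and the chemokine receptor gene Ccr2 had 886 to 1143 CPM with G-CSF and 979.6 and 982 CPM without (0.04 ± 0.09).

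Of 17 dendritic cell genes 0 were called (median −0.10). The 4 genes of antigen presentation by MHC class II in that list had log2 fold changes of −0.26 ± 0.17 (Cd74), −0.31 ± 0.17 (H2-Aa), −0.22 ± 0.17 (H2-Ab1) and −0.32 ± 0.17 (H2-Eb1), each with overlapping libraries. Of 19 osteoclast genes 14 were tested and 0 called (median 0.00). Tnfrsf11a, the RANK receptor gene, had 5.44, 4.23 and 8.79 CPM with G-CSF alone and 9.58, 4.91 and 4.50 CPM with the combined treatment, against 5.63 CPM untreated and 5.87 CPM with ZA (0.12 ± 0.34). Its interval of −0.65 to 0.88 was wide, since 2 of the 6 libraries were above both others and 4 below. Nfatc1, the master factor of osteoclast formation, had 64.8 to 72.2 CPM with G-CSF and 72.8 and 65.8 CPM without (0.01 ± 0.08). The Fos family gene Fosl2 was the 1 member with all 6 libraries above both others, at 147 to 197 CPM with G-CSF against 141 and 140.1 CPM without (0.32 ± 0.12). Ctsk, Dcstamp, Atp6v0d2, Calcr and Oscar, genes of formed osteoclasts or their fusion, were too low to test.

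Genes of progenitors and of marrow retention did not pass either. Kit, the stem cell factor receptor gene, had 38.1 to 73.6 CPM with G-CSF and 69.8 and 59.4 CPM without (−0.23 ± 0.19). Cd34 had 127 to 187 CPM with G-CSF and 179 and 180 CPM without (−0.12 ± 0.12). Of 17 stem and progenitor genes 15 were tested and 0 called (median −0.10), and Procr, below 1.2 CPM throughout, was the 1 member with all 6 below both others. Cxcr4, the retention receptor gene, had 503, 410.3 and 498 CPM with G-CSF alone and 434, 461 and 439.9 CPM with the combined treatment, against 421 CPM in both libraries without G-CSF (0.12 ± 0.08, 95% interval −0.07 to 0.31). The 10 homing and retention genes had 0 called (median 0.07), with Cd44 above in all 6 and the low S1pr1 below in all 6. The 15 cytokine receptor genes had 0 called (median 0.06), with Il6ra above in all 6 at 339 to 411 CPM against 326 and 333 CPM (0.13 ± 0.08).

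The 28 cell cycle genes had 0 called and a median of −0.02, with summed levels of 7112 to 7476 CPM with G-CSF and 7540 and 7410 CPM without. Mki67 had a log2 fold change of −0.05 ± 0.08 and Top2a of −0.07 ± 0.06. Cdk1 and Ccne1 lay above in all 6 libraries and Bub1 and Mcm7 below. The 15 ribosome biogenesis genes had 0 called (median −0.09), and the 19 lysosome genes 0 called (median 0.06). The 23 genes of the mevalonate pathway, which ZA blocks, had 0 called (median −0.0014), with Mvk and Stard4 above in all 6 libraries, Pmvk below, and Fdps at 0.00 ± 0.11. The 12 immediate early genes had 10 tested and 0 called (median 0.04), with Fos at 12.7 to 22.9 CPM with G-CSF and 15.2 and 10.2 CPM without (0.47 ± 0.24). The 12 inflammatory genes had 8 tested and 0 called (median −0.02). The 13 mitochondrially encoded genes had 0 called (median 0.04).

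The 19 interferon-stimulated genes had 0 called and a median of −0.15. Mx2, an antiviral GTPase gene, had 4.10 to 9.71 CPM with G-CSF and 13.2 and 10.3 CPM without (−0.66 ± 0.29, adjusted p = 1.00). Ifih1, a sensor of viral RNA, had 15.7 to 29.4 CPM with G-CSF and 32.5 and 33.0 CPM without (−0.51 ± 0.22, adjusted p = 1.00). For Mx2 the 3 combined libraries were all below the 3 with G-CSF alone, while for Ifih1 these overlapped. Stat2 went the other way with all 6 libraries above (0.15 ± 0.08). Isg15, which marks the response widely, had 3.50 to 5.94 CPM with G-CSF and 5.42 and 4.42 CPM without (−0.09 ± 0.27).

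Markers of cells that the gate should remove were examined over whole lists. The 17 erythroid genes summed to 321 to 7073 CPM with G-CSF and to 1782 and 2135 CPM without, and to 321 to 1140 CPM with G-CSF when combined replicate 3 is left out. The 15 B lineage genes summed to 46.3 to 71.6 CPM with G-CSF and to 90.9 and 79.0 CPM without. These sums include Pax5, which had been picked by its small p. Pax5 held 36.02 of the 79.0 CPM in the ZA library, against at most 3.12 CPM in any library with G-CSF. The B lineage sums are thus not separate from the Pax5 difference. By these values, leaving Pax5 out puts the ZA library below all 6 libraries with G-CSF. The untreated library, with 17.01 CPM of Pax5, stays above all 6, so the sides then overlap. Of the 16 T and NK cell genes 7 could be tested, and Cd3e could not. The 7 summed to 2.41 to 3.94 CPM with G-CSF and to 8.21 and 4.27 CPM without, and Lck was below in all 6 (−1.82 ± 0.47, adjusted p = 1.00). The 10 tested of the 11 megakaryocyte genes summed to 35.6 to 59.6 CPM with G-CSF and to 63.8 and 43.0 CPM without. The 11 tested of the 13 mast cell, basophil and eosinophil genes summed to 44.8 to 105 CPM with G-CSF and to 74.8 and 60.1 CPM without. Their median log2 fold changes were −0.30, −0.32, −0.46, −0.64 and −0.33 in that order, all with 0 genes called. The parts that these cells take in the values of Pax5 and Bach2 were not tested. Of 13 stromal genes 7 were tested and 0 called (median −0.54), and of 8 endothelial genes 5 were tested and 0 called (median −0.31).

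Over the 27 lists, 374 different genes were tested and 0 were called. In 13 of them all 6 libraries with G-CSF lay above both others and in 14 below, which is near the 3.03% and 3.11% of all genes tested. List medians ran from −0.64 to 0.07, with 9 above 0 and 18 below.

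**Figure D5:**
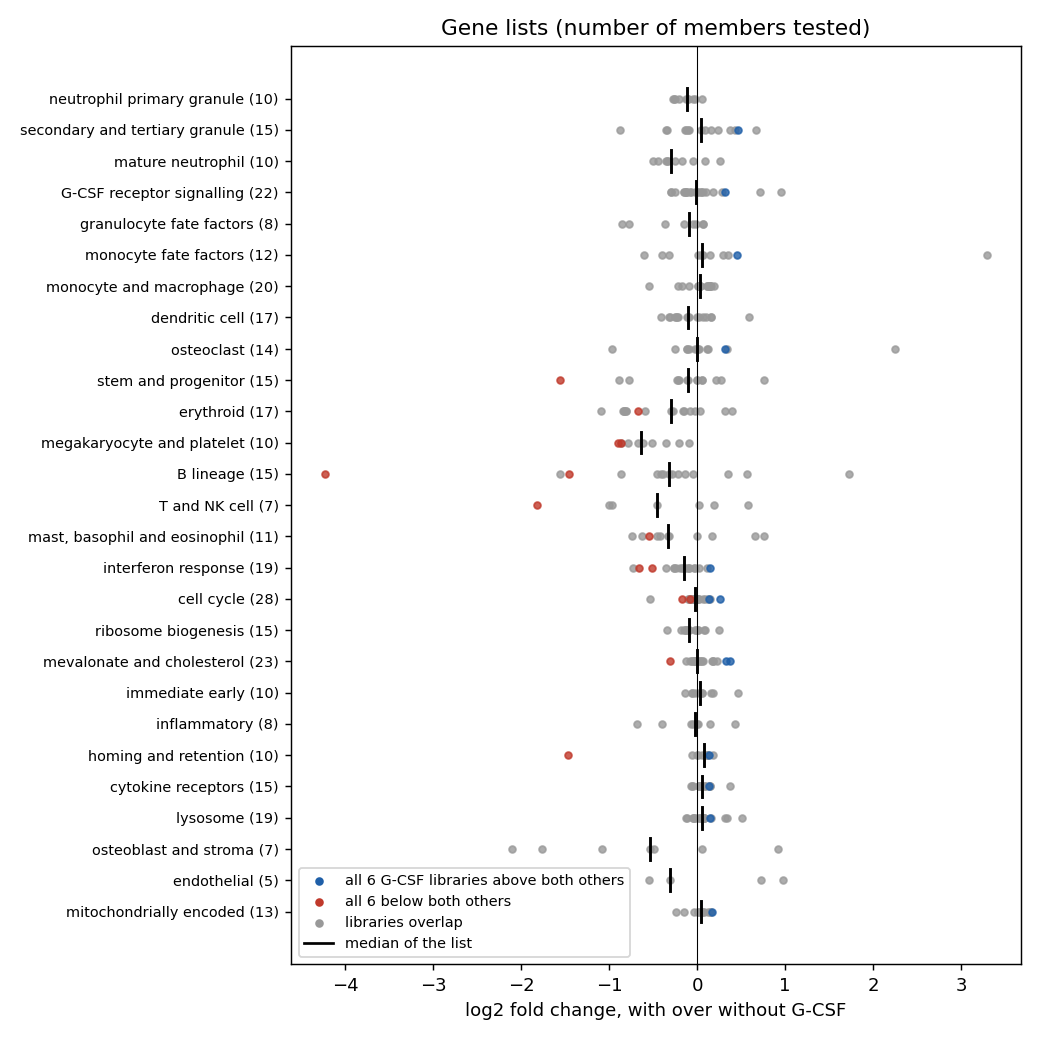
Log2 fold change, with over without G-CSF, of each tested member of the 27 gene lists (1 point per gene), with the list median as a black bar and the number tested in brackets. The coloured points are the members whose libraries do not overlap, and Pax5 at −4.23 is the lowest of them.

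Whether the G-CSF difference depended on ZA was tested as an interaction, with the 2 lone libraries taken to vary like the replicated groups. EdgeR called 0 genes (566 at an unadjusted p under 0.05) and DESeq2 called 29. Combined treatment against ZA (3 against 1) gave 0 calls with 744 at an unadjusted p under 0.05, and G-CSF alone against untreated (3 against 1) gave 0 with 449, both in edgeR.

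In run 2, edgeR called 0 genes higher and 0 lower with G-CSF among 14717 tested (4 libraries against 5), with 3597 at an unadjusted p under 0.05. DESeq2 called 303 higher and 1535 lower there. EdgeR called 103 higher and 910 lower without ZA replicate 6, and 259 higher and 1321 lower without ZA replicate 8. These are the 2 libraries of that side most like the run 1 precursors. When the other 3, which resembled whole marrow, were left out instead, 0 were called higher and 1 lower. That left only ZA libraries on the side without G-CSF, so ZA was not balanced between the sides. A test of the difference between runs called 0 of 15581 genes in edgeR (1665 at an unadjusted p under 0.05) and 347 in DESeq2.

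Of the 10 genes described above, Klhdc7a and Dock3 were not tested in run 2. The run 2 libraries included the close counterparts of run 1. In the 9 libraries of other replicate numbers, Pax5 had 0.220 to 4.33 CPM with G-CSF and 16.5 to 225 CPM without. This did not hold in run 2 libraries labelled as run 1 samples. There Pax5 had 23.0, 78.4 and 0.498 TPM in G-CSF replicates 1, 2 and 3, against 1.89, 0.108 and 0.629 TPM in run 1. Combined replicates 1 and 3 had 3.00 and 60.8 TPM, against 0.0867 and 1.13 TPM in run 1. Untreated replicate 2 had 49.5 TPM, against 9.73 TPM in run 1. Run 2 G-CSF replicate 2 and untreated replicate 2 had mean correlations of only 0.767 and 0.806 with the run 1 precursors. Whole marrow of run 1 had 0.782 to 0.802, with Pax5 at 60.9 to 67.4 TPM. The mean correlations were 0.892 and 0.906 for run 2 G-CSF replicates 1 and 3. They were 0.905 and 0.864 for run 2 combined replicates 1 and 3. The cause was not tested. Cnot6l had 174 to 334 CPM with G-CSF and 29.6 to 192 CPM without, and Bach2 had 4.80 to 16.9 CPM with G-CSF and 8.88 to 53.5 CPM without. Leaving out the 3 libraries like whole marrow left only ZA replicates 6 and 8 without G-CSF, and no untreated library. The side with G-CSF held libraries with and without ZA, so this contrast mixes G-CSF with ZA. Without the 3 libraries like whole marrow the run 2 log2 fold changes were −3.29 ± 1.01 for Pax5, 0.82 ± 0.29 for Cnot6l and 0.46 ± 0.18 for Camta2. Those of Suco and Bach2 were 0.63 ± 0.22 and 0.01 ± 0.49. Over all 9 libraries of run 2 that of Suco was −0.29 ± 0.36 and that of Rps27rt −0.52 ± 0.43, both opposite in direction to run 1, while Nupr1l had −1.54 ± 0.64 and N4bp2os −1.50 ± 0.56. Without the 3 libraries Rps27rt had 0.69 ± 0.12 (adjusted p = 0.266). None of the first 5 was called by edgeR (adjusted p = 0.458, 0.484, 0.527, 0.484 and 0.995 in the same order).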

How the data were processed

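RNA was sequenced on an Illumina HiSeq from libraries made with an NEB Ultra RNA kit, per the labels, which do not state strand. Salmon, mm10 and DESeq2 1.16.1 are listed in the submitters' processing notes. The authors deposited estimated counts and TPM per Ensembl gene. The deposited estimated counts have library totals that differ, and in 9792 genes compared the deposited TPM kept 1 fixed ratio to count per gene, up to a factor per library. How reads of near-identical copies were split is not given in the sources used here.

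Symbols and coordinates came from GENCODE vM21 (99.0% of identifiers matched). After rounding, counts went into edgeR 4.0.16 in R 4.3.3 (quasi-likelihood, robust, filterByExpr minimum count 10 and total 15, TMM, Benjamini-Hochberg adjusted p under 0.05). G-CSF was the 1 factor. Of 46679 genes, 17187 were tested. Unless DESeq2 or limma is named, adjusted p values are edgeR's. DESeq2 1.42.0, limma 3.58.1 on log2(TPM + 1), other scaling, no filter, ZA or replicate number as a term, 4 groups, both runs together, and each library left out were alternatives. The scripts were tested on simulated counts.

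Named genes followed a rule: genes that passed, or else the 10 with the smallest unadjusted p, leaving out predicted genes; up to 4 genes of each list; and 8 receptor and fate genes. Others were chosen after their values were seen, among them list members whose libraries do not overlap and further list members. The members and lists were chosen with earlier results of these data known. Total estimated counts were 21.05 to 33.2 M per library, and floors cover counting error alone, while intervals of fold changes come from edgeR's standard errors and include the spread between libraries. Values of a few list members are not reported here.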

Additional observations from a re-analysis of the deposited data

Results flagged for a closer look

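Of 108 named genes tested for 1 of the 6 libraries with G-CSF lying far from the other 5, 13 were flagged. The rule flags about 1 in 20 only for independent, normally distributed values. The CPM of these genes need not be either, so the count is not compared with chance. The next values given are those among the same 6 libraries. Combined replicate 3 accounted for 8 of the 13. Its globin transcripts were the highest: Hba-a1 822 CPM (next 86.6), Hba-a2 2508 CPM (next 376), Hbb-bs 2976 CPM (next 414) and Hbb-bt 485 CPM (next 64.5). Both libraries without G-CSF lay between these values, at 109 and 189 CPM for Hba-a1. The globin copies are near-identical, so how reads were split among them is uncertain. Late neutrophil genes were also highest there, with Ltf at 121 CPM (next 55.2), Camp at 119.5 CPM (next 44.6) and S100a9 at 309 CPM (next 160.1). The untreated library lay between, at 87.8 CPM for Ltf, 61.1 CPM for Camp and 244 CPM for S100a9. The interleukin 3 receptor gene Il3ra was lowest there, at 48.7 CPM (next lowest 60.5).

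Socs3 had 19.4 CPM in G-CSF replicate 2 (next 2.32), against 2.84 CPM in the untreated library and 1.45 CPM in the ZA library. In G-CSF replicate 1, Cd34 was low at 127 CPM (next lowest 168) and Itgb2 high at 451 CPM (next 324). Fdps had 138 CPM in combined replicate 2 (next 110.1), and Kitl had 0.700 CPM in combined replicate 1 (next 0.178), against 0.592 and 0.648 CPM in the libraries without G-CSF, so combined replicate 1 was apart only from the other libraries with G-CSF. The causes were not tested.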

How the results depend on the processing

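In run 1 the edgeR counts of 0 higher and 0 lower held under RLE scaling, no filter, ZA as a term, the 4-group fits and both runs together, and without each library in turn (0 to 0 calls; 465 to 692 genes at an unadjusted p under 0.05; smallest adjusted p 0.0643 to 0.591). DESeq2 called 13 higher and 10 lower, and limma on log2(TPM + 1) called 5 lower. With the replicate number as a replicate block edgeR called 0 (530 at an unadjusted p under 0.05). Deviations of same-numbered libraries correlated at 0.12, −0.04, 0.08 and 0.08, values that are not independent, since the deviations of the 2 libraries without G-CSF mirror each other. As not every pair was over 0.1 and no label ties the numbers to a shared source, the numbers were not taken as pairs.

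In run 2 the counts of 0 became 303 higher and 1535 lower with DESeq2 and 7 higher and 6 lower with limma on TPM, where the median of all genes was 0.26. Leaving out 1 library gave 0 to 259 higher and 0 to 1321 lower, the calls arising without ZA replicate 6 (103 and 910) or ZA replicate 8 (259 and 1321). Leaving out the 3 libraries like whole marrow, chosen after seeing the data, gave 1 lower, Zmym1. That fit had only ZA libraries on the side without G-CSF. With the replicate block, also added after seeing the data, run 2 gave 1822 higher and 2314 lower; number 5 is the 1 number on both sides, so that fit sets G-CSF and combined replicates 5 against ZA replicate 5, one of the 3 libraries like whole marrow. For the difference between runs DESeq2 called 347, and for that with ZA 29. The cause was not tested.

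Over 108 named genes and 18 settings each, where a fit gave a value, 1656 values moved by less than 1 standard error, 273 moved further and 12 became calls. Only 31 of the 108 genes kept their direction in every setting; Jak2, near 0, kept it in 9 of 18, and Socs3 kept it in 15. With 2 libraries on 1 side, differences in genes under 5 CPM are poorly bounded.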

Other observations

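A few genes were abundant in some libraries and near 0 in others, and were picked after their values were seen. Among genes with a symbol that is not a predicted model, 6 had at least 10 CPM in 2 or more of the 8 libraries and at most 0.5 CPM in 2 or more. Dnah11, a motor protein of cilia, had 155, 0.0356 and 152 CPM with G-CSF alone and 162, 0.118 and 0.0363 CPM with the combined treatment, against 0.0846 CPM untreated and 0.0762 CPM with ZA. It was thus high in 3 of the 6 libraries with G-CSF and near 0 in the other 5 libraries. Its log2 fold change of 9.84 ± 4.94 did not pass edgeR (adjusted p = 1.00). In run 2 libraries labelled as these 3 samples Dnah11 had 22.7, 24.4 and 15.5 TPM in run 2 G-CSF replicates 1 and 3 and combined replicate 1, against 21.2, 19.9 and 12.8 TPM in run 1. Run 2 G-CSF replicates 4 and 5, the closest counterparts of G-CSF replicates 1 and 3 over all genes, had 0.00841 and 0.00232 TPM, while run 2 combined replicate 4 had 13.3 TPM. The untreated replicate 2 label had 0.0118 TPM in run 1 and 6.58 TPM in run 2. Dnah11 was also high in other libraries without G-CSF. In run 2 it had 11.27 TPM in untreated replicate 7 and 8.78 and 11.34 TPM in ZA replicates 5 and 7. ZA replicates 6 and 8 had 0.0103 and 0.0118 TPM. Untreated whole marrow of run 1 had 6.35 TPM.

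Foxp3, the factor of regulatory T cells, had 32.6 CPM in G-CSF replicate 1 and 43.2 CPM in combined replicate 3, against 0.0381 to 0.498 CPM in the other 6 libraries, with Cd3e too low to test. Its TPM was 6.61 in G-CSF replicate 1 in run 1 and the same in run 2 to 4 digits, and for combined replicate 3 it was 6.68 in run 1 and 6.90 in run 2. Cr2, a complement receptor of B cells, had 14.4, 14.7 and 14.8 CPM in G-CSF replicate 2, combined replicate 1 and combined replicate 3, against 0 to 1.09 CPM in the others. Gpr26 had 15.96 CPM in combined replicate 3 and 18.2 CPM in the untreated library, against 0.0737 to 0.533 CPM in the others. Prss36 had 13.6 CPM in G-CSF replicate 1 and 15.4 CPM in combined replicate 3, against 8.27 CPM in the ZA library and at most 1.74 CPM elsewhere. Pax5, described above, was the sixth and the only one of these 6 genes that was on in both libraries without G-CSF.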
